A study of Mus musculus with 23 samples.

Results

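Leukaemic granulocyte-macrophage progenitors (L-GMPs) that carried MLL-AF9 but lacked C/EBPα were compared with MLL-AF9 L-GMPs in which the Cebpa gene was intact. The labels chose the arrays: 3 of knockout L-GMPs and 4 of control L-GMPs, 7 of the 23 arrays of the series. Knockout donors were Mx1-Cre C/EBPa f/f mice, and control donors had the floxed gene without Cre. Donors of both genotypes were given 3 poly I:C injections. Mx1-Cre is driven by an interferon-inducible promoter, so it acts in the marrow and in other interferon-responsive cells. KSLs (Kit+ Sca-1+ lineage- stem and progenitor cells) of both genotypes were cultured with stem cell factor at 100 ng/ml, thrombopoietin at 100 ng/ml and IL-3 at 10 ng/ml. They were infected with a retrovirus that carried MLL-AF9 and GFP, and put into lethally irradiated congenic mice. The knockout arrays were 1 primary recipient and 2 secondary recipients, and all 3 trace to the same leukaemia. That leukaemia arose in a recipient that had been given expression vectors for IL-3 and GM-CSF into the circulation, 2 to 4 months after transplantation. The control arrays were 2 primary and 2 secondary recipients, with no such vectors named and with no statement of which recipients shared a donor leukaemia. The p-values rest on the spread between arrays within groups, pooled over all 23 arrays, and not on that between independent leukaemias. The vectors, the particular leukaemia and the genotype therefore cannot be told apart. The other 16 arrays held KSLs and CMPs (common myeloid progenitors) of MLL-AF9 knockout recipients without leukaemia, CMPs of knockout and control mice without MLL-AF9, and control GMPs. The CMPs and GMPs without MLL-AF9 are labelled 5 days after poly I:C, an interval that the L-GMP labels do not give.

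C/EBPα is a leucine zipper transcription factor that carries common myeloid progenitors into the granulocyte and monocyte lineages, and GMPs do not form in adult marrow without it. MLL-AF9 joins the DNA-binding end of the histone methyltransferase MLL to a subunit of the transcription elongation machinery, and it keeps Hoxa9 and Meis1 on in myeloid progenitors. Cells with the surface phenotype of GMPs propagate this leukaemia in mice, which is why L-GMPs are the population sorted.

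Expression is given as log2 values made with RMA, in which 1 unit is a doubling and the lowest value possible is 3. The medians of the L-GMP arrays lay between 5.26 and 5.33, and 3079 to 3379 of 34760 probe sets per array sat at the floor. Array 2 of the primary control recipients stood apart, with correlations of 0.9347 to 0.956 with the other 6 L-GMP arrays. The knockout arrays correlated at 0.9825 to 0.9896 among themselves, and the secondary control arrays at 0.9859. Xist, which is transcribed only in cells with an inactive X chromosome, was at 10.46, 10.80 and 10.92 on the knockout arrays. It was at 10.97 on primary control array 2 and at 3.64 to 3.79 on the other control arrays, so the sex of the cells moved with genotype in all arrays but that one. Counts with a term for high Xist, and without primary control array 2, are given beside the main ones.

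The deleted gene was low on every knockout array. Cebpa was at 5.15 in the primary knockout recipient and at 4.90 and 4.33 in the secondary ones, against 7.96 and 7.69 in primary and 7.36 and 7.36 in secondary control recipients. The groups did not overlap. The log2 change was -2.71 ± 0.19 (SE), a 6.55-fold difference (limma, BH-adjusted p = 1.45e-06). The knockout values sat beside those of untransduced knockout CMPs, where Cebpa was lower than in control CMPs by a like amount, -2.23 ± 0.17. The labels do not say whether the probe set lies within the deleted part. The L-GMP gate is not described in the labels, and the sort was checked against the usual surface phenotype of GMPs. Kit, the stem cell factor receptor, was at 8.24, 8.38 and 8.33 on the knockout arrays, against 9.03, 7.53, 7.62 and 6.33 on the control arrays. Cd34 was at 9.71 to 10.11 in knockout and 8.71 to 9.97 in control L-GMPs, and the Fcγ receptor gene Fcgr3 was at 9.51 to 9.66 in knockout and 9.42 to 10.28 in control L-GMPs. None of these 3 passed the test, with adjusted p of 0.297 for Kit, 0.0671 for Cd34 and 0.796 for Fcgr3 (limma). Il7r, chosen as a gene low in that phenotype, was at 3.72, 3.97 and 3.82 in knockout L-GMPs. It was at 9.34 on primary control array 1 and at 4.17, 4.07 and 3.76 on the other control arrays. In bulk samples such as these, fewer cells of a type and less RNA per cell cannot be told apart.

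Pcdh7 had the largest rise and Cpa3 the largest fall among the genes that passed. Of 19937 genes tested 651 passed (3.27%, limma, BH-adjusted p below 0.05), 419 of them higher (2.1%) and 232 lower (1.16%) in knockout L-GMPs. Among those at least 2-fold apart, 165 were higher (0.828%) and 27 lower (0.135%) in knockout L-GMPs. The test treats the 3 knockout arrays as separate samples. With that leukaemia averaged to 1 sample, 83 genes passed (0.416%), 63 higher (0.316%) and 20 lower (0.1%), and 81 of the 83 were among the 651, in the same direction. The count was 382 (1.92%) with a random block for the shared leukaemia or mouse, 547 (2.74%) without primary control array 2, 455 with a term for high Xist, and 2449 without primary control array 1, which leaves array 2 as the lone primary control. Rises were 64.4% of the 651 calls, but 49.2% of the calls (1204 higher and 1245 lower) without primary control array 1. The plot of all genes shows rises that reach further from the diagonal than falls.

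**Figure D1:**
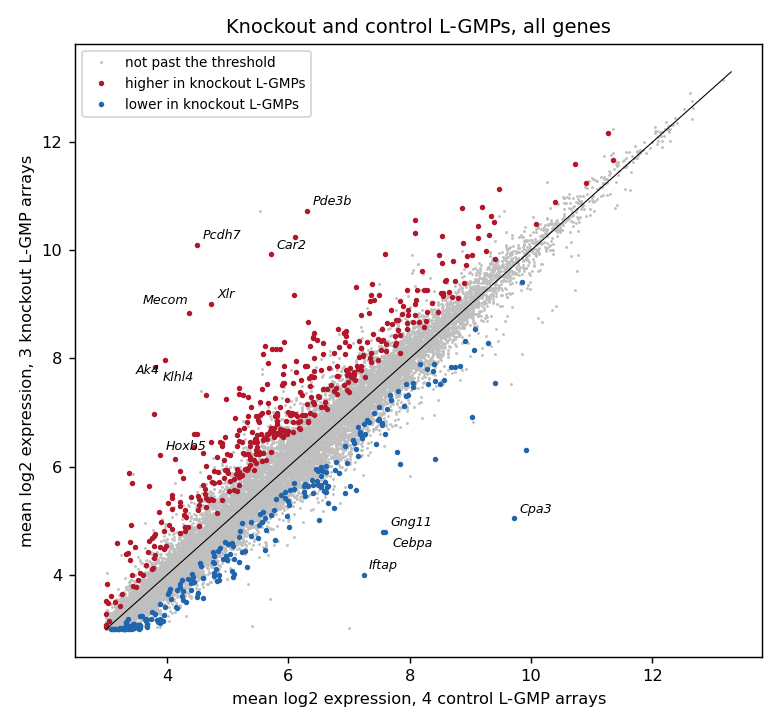
Mean log2 expression (RMA) of 19937 genes in knockout L-GMPs (vertical axis, 3 arrays) against control L-GMPs (horizontal axis, 4 arrays). Each point is a gene, red where higher in knockout L-GMPs (419), blue where lower (232) and grey where it did not pass; the line marks equal means, and Pcdh7 stands farthest above it among the genes that passed.

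Pcdh7, a protocadherin of the cell surface, showed the largest rise of the 651 genes. It stood at 10.07 in the primary and at 10.04 and 10.20 in the secondary knockout recipients, against 4.36 and 4.95 in the primary and 4.36 and 4.34 in the secondary control recipients. The mean was 10.1 ± 0.08 in knockout and 4.50 ± 0.30 in control L-GMPs (SD, n = 3 and 4), and the groups did not overlap. The log2 change of 5.59 ± 0.19 is a 48.1-fold difference (limma, BH-adjusted p = 5.34e-11, and 5.49e-08 with the knockout leukaemia as 1 sample). Pcdh7 was also higher in untransduced knockout CMPs (mean 6.73) than in control CMPs (mean 5.13), a log2 change of 1.6 ± 0.17 (adjusted p = 4.72e-05, limma). The difference in L-GMPs exceeded that in CMPs by 3.99 ± 0.26 (adjusted p = 5.06e-07, limma). In MLL-AF9 knockout recipients without leukaemia its mean was 5.13 in KSLs and 5.12 in CMPs, and in control GMPs it was 4.51. A level near 10 was thus measured on the 3 arrays of the knockout leukaemia and on no other array.

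Mecom encodes EVI1, a zinc finger transcription factor of haematopoietic stem cells that is aberrantly expressed in a class of human acute myeloid leukaemias. It was at 8.14, 8.76 and 9.60 on the knockout arrays, against 5.36, 4.27, 3.93 and 3.94 on the control arrays. The lowest knockout array was well above the highest control array. The log2 change was 4.29 ± 0.98 with an adjusted p of 0.0254 (limma), which became 0.403 with the knockout leukaemia as 1 sample and 0.076 with a term for high Xist. The call also ended when any of 4 arrays was left out, with an adjusted p of 0.0787 without secondary knockout array 2, 0.0729 without primary control array 2, and 0.0522 and 0.0654 without secondary control arrays 1 and 2. The error is shared by all 9 groups, and Mecom varied widely within other groups too. In MLL-AF9 knockout recipients without leukaemia, Mecom was at 4.29 in KSLs and 3.65 in CMPs of 1 mouse, at 8.46 and 7.95 in the same populations of another mouse, and at 8.60 in CMPs of a further mouse. Among cells without MLL-AF9, every array lay between 4.13 and 5.11 in CMPs, knockout and control. The gene has 2 probe sets, and their plain mean differences between the knockout and control arrays were 4.46 and 2.06.

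Cpa3, a carboxypeptidase of mast cell granules that early myeloid progenitors also express, showed the largest fall of the 651 genes. It stood at 4.75, 5.75 and 4.65 in knockout recipients, against 10.61 and 10.31 in primary and 9.30 and 8.65 in secondary control recipients. All 3 knockout arrays lay below all 4 control arrays. The log2 change was -4.74 ± 0.77, a 26.8-fold difference (limma, BH-adjusted p = 0.00294, and 0.113 with the knockout leukaemia as 1 sample). In CMPs without MLL-AF9 the mean was 10.9 in the knockout and 9.69 in the control, so the difference between the genotypes ran the other way there, at 1.2 ± 0.69 (adjusted p = 0.476, limma). The L-GMP difference minus the CMP difference was -5.95 ± 1.04 (adjusted p = 0.00455, and 0.0631 with a term for high Xist, limma). Cpa3 was at 7.99 to 12.6 on the arrays of MLL-AF9 knockout progenitors without leukaemia, and at a mean of 8.77 in control GMPs.

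**Figure D2:**
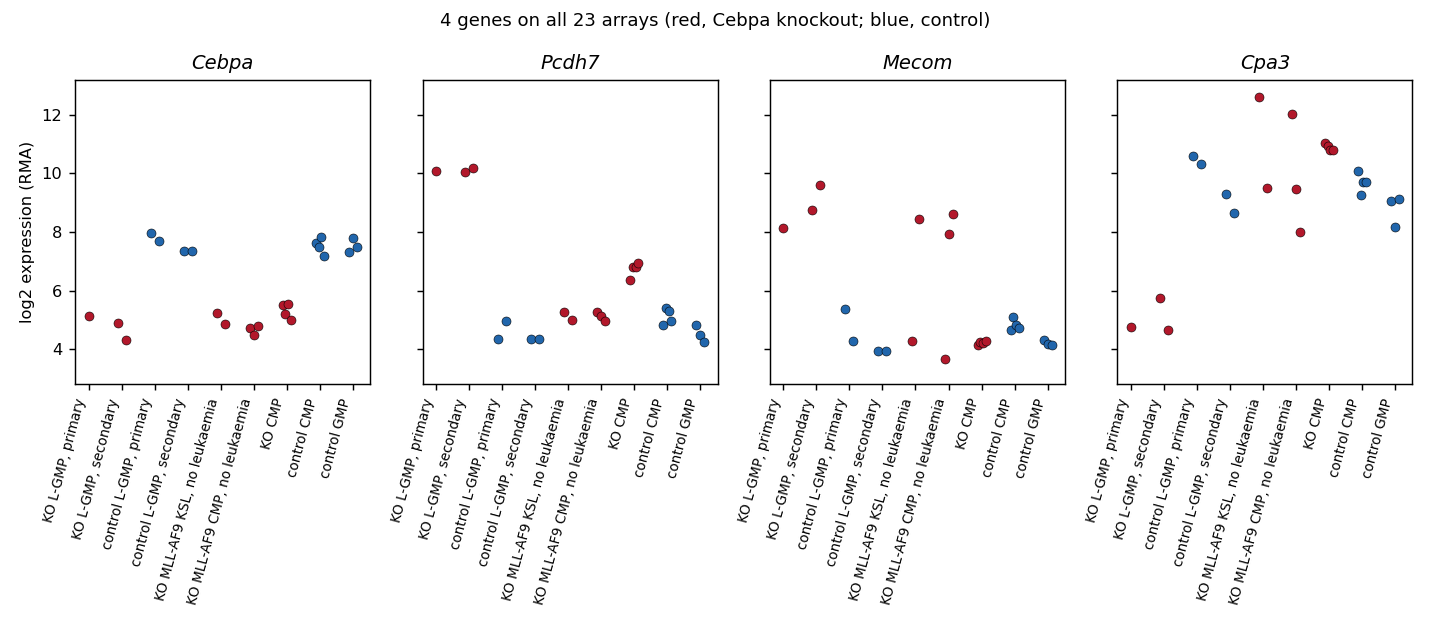
Log2 expression (RMA, vertical axes) of Cebpa, Pcdh7, Mecom and Cpa3 on each of the 23 arrays, by group, with Cebpa knockout samples in red and controls in blue. Pcdh7 was near 10 and Cpa3 under 6 on the 3 knockout L-GMP arrays alone, while high Mecom was also present in some MLL-AF9 knockout progenitors without leukaemia.

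The proximal promoters of these 3 genes are printed because the deleted factor binds DNA, as do the GATA factors that act on mast cell genes. The windows come from RefSeq on GRCm38.p6 and run from 250 bases before to 50 bases after a transcript start, on the strand of the gene. Capitals mark AGATAA or TGATAA, the letters of a GATA motif, on either strand.
Pcdh7, chr5:57717831-57718130, plus strand: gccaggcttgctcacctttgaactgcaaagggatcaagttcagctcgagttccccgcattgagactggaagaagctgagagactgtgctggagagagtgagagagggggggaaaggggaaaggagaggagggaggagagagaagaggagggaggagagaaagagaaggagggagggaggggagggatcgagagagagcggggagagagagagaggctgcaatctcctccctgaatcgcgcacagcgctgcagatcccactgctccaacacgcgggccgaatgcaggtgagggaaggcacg
Mecom, chr3:30509710-30510009, minus strand: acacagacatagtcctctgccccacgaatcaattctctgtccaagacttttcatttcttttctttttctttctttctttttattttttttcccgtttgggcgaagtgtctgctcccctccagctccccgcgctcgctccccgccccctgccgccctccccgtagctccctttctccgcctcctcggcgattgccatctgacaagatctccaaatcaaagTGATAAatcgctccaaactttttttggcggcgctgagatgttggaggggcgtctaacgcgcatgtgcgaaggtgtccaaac
Mecom, chr3:30013155-30013454, minus strand: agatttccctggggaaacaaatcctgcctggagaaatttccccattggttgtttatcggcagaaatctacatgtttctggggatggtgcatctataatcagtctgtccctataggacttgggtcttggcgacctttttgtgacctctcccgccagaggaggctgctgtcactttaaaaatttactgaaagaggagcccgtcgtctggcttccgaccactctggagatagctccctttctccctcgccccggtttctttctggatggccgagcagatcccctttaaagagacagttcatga
Cpa3, chr3:20242132-20242431, minus strand: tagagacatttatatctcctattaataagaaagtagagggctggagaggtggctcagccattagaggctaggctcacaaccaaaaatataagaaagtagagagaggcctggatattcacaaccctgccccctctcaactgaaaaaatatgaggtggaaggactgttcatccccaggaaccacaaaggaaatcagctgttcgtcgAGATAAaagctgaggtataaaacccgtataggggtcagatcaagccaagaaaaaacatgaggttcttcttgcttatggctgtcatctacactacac
The Cpa3 window holds AGATAA at position -46 from the start, and 1 of the Mecom windows holds TGATAA at -31. None of the 4 windows holds TTGCNNAA, letters of the C/EBP motif, on either strand. Over all such windows TTGCNNAA was present in 10.8% of 32851, in 9.75% for measured genes, in 10.49% (45 of 429) for genes higher in knockout L-GMPs and in 13.15% (28 of 213) for genes lower. The GATA letters were present in 18.61% of all windows, in 14.74% for measured genes, in 12.35% (53) for genes higher and in 22.07% (47) for genes lower. Genes with several starts enter these shares with several windows, 507 of the 651 genes had a window, and a match is a description of sequence and not a measured site.

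Beyond Pcdh7, the rule for large rises named 13 genes that did not overlap between the groups and passed with 3 knockout samples as well as with the leukaemia as 1. Car2, the cytosolic carbonic anhydrase of erythroid and other cells, was at 9.88, 9.91 and 9.99 in knockout recipients, against 5.13, 6.13, 5.74 and 5.84 in control recipients. Its log2 change was 4.20 ± 0.47, an 18.4-fold difference (limma, BH-adjusted p = 0.000104). The knockout level was close to the means of 9.81 in knockout CMPs and 9.08 in control CMPs, whereas the control L-GMP level was near the 6.08 of control GMPs. Car3, a further carbonic anhydrase, rose by 1.40 ± 0.20 (adjusted p = 0.000765, limma), and the other 9 of 11 measured carbonic anhydrases did not pass.

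Klhl4, an X-linked kelch-like protein of the BTB family, was at 8.35 in the primary and at 7.54 and 7.66 in the secondary knockout recipients, against 3.57, 4.10, 3.68 and 3.90 in control recipients. Every control array was low, and the groups did not overlap. The log2 change was 4.16 ± 0.13, a 17.9-fold difference (limma, BH-adjusted p = 2.03e-11). Xlr, an X-linked lymphocyte-regulated gene with close copies that may share probes, was at 8.69, 9.07 and 9.27 in knockout recipients, against 7.56, 5.33, 3.00 and 3.00 in control recipients. Its control values spread from the floor to near the knockout level, and the change was 4.20 ± 0.57 (adjusted p = 0.000656, limma). With the term for high Xist, both X-linked calls held.

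Ak4, a mitochondrial adenylate kinase, was at 7.12, 8.21 and 8.61 in knockout recipients, against 4.13, 3.62, 3.96 and 4.12 in control recipients, a log2 change of 3.81 ± 0.50 (limma, BH-adjusted p = 0.000429). Its mean in control GMPs was 7.77, close to the knockout L-GMPs. Lifr, the receptor for leukaemia inhibitory factor, was at 5.16, 6.03 and 6.48, against 3.29, 3.01, 3.06 and 4.11, a change of 2.34 ± 0.25 (adjusted p = 7.55e-05, limma) in knockout over control L-GMPs. Crtc3, a coactivator of CREB, was at 9.42, 10.05 and 10.31 in knockout L-GMPs, against 7.26, 7.34, 8.0 and 7.81 in control L-GMPs, a change of 2.20 ± 0.16 (adjusted p = 2.17e-06, limma). The other rises were between 2.24 and 2.61: the secreted glycoprotein Lrg1, the voltage-gated proton channel Hvcn1, the lysine methyltransferase Vcpkmt, the Rab regulator Dennd5b, the Mediator subunit Med12l, the AF4 family protein Aff3 and, at 2.30, Hoxb5. None of these overlapped between the groups, and their adjusted p lay between 0.000106 and 0.00128 (limma).

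**Figure D3:**
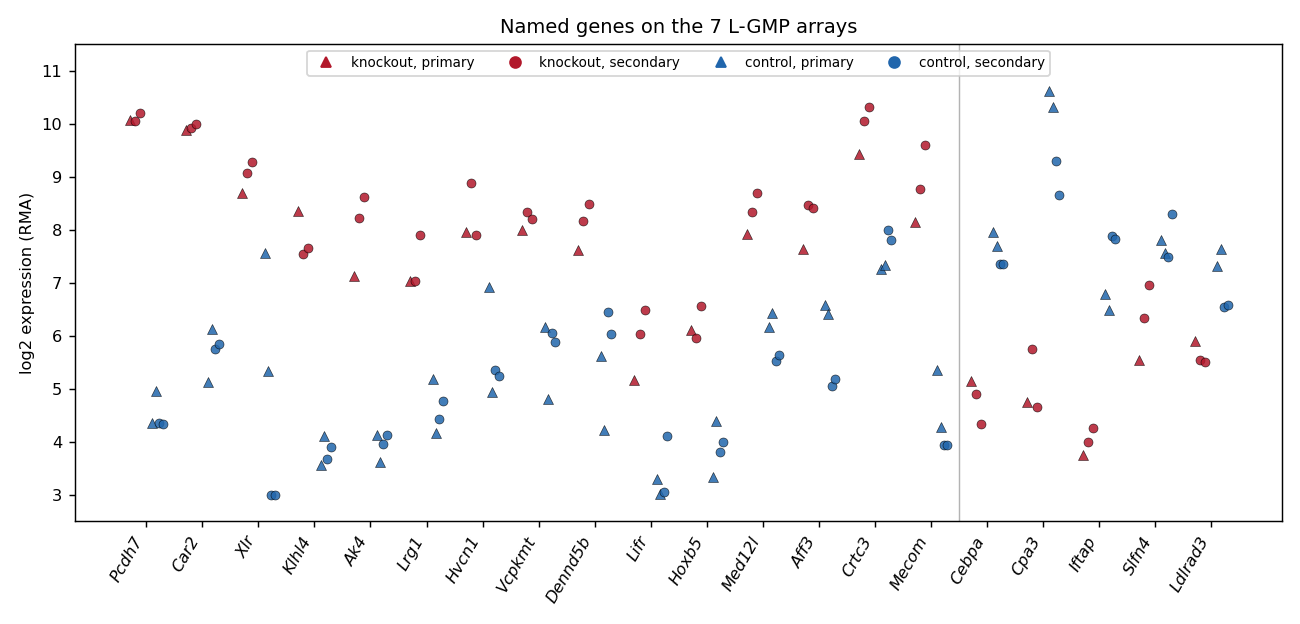
Log2 expression (RMA, vertical axis) on each of the 7 L-GMP arrays for the 14 largest rises that passed with 3 knockout samples and with the leukaemia as 1, Mecom and, right of the grey line, 5 genes that fell, with knockout in red left of control in blue; triangles are primary and circles secondary recipients. Knockout and control points do not overlap for any of the 20 genes, and Xlr has the widest control range, 3.00 to 7.56.

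Falls were fewer, and 8 genes passed both tests without overlap. Iftap, an intraflagellar transport associated protein, was at 3.75, 3.99 and 4.26 in knockout recipients, against 6.78, 6.48, 7.88 and 7.82 in control recipients, a log2 change of -3.30 ± 0.44 (limma, BH-adjusted p = 0.000522). Slfn4, an interferon-inducible Schlafen gene of myeloid cells, was at 5.55, 6.33 and 6.96, against 7.80, 7.56, 7.49 and 8.29, a change of -1.69 ± 0.19 in knockout against control L-GMPs (adjusted p = 9.55e-05, limma). Its relative Slfn8 rose by 1.28 ± 0.28 (adjusted p = 0.0213, 0.361 with the leukaemia as 1 sample and 0.09 with a term for high Xist, limma), and the other 6 measured Schlafen genes did not pass. The Slfn8 call ended at adjusted p of 0.0608 without primary control array 2, 0.0559 without secondary control array 1 and 0.072 without secondary knockout array 1, and Schlafen copies may share probes. Ldlrad3, a membrane protein with low-density lipoprotein receptor repeats, fell by 1.31 ± 0.17, and the stefin-like protease inhibitor Csta3 fell by 1.05 ± 0.18. Speer3, Prss58 and Pate13 changed by -0.43, -0.27 and -0.21 only, with all knockout arrays below 4, and all 3 belong to families with close copies.

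Of the homeobox genes of the Hoxb cluster, Hoxb2, Hoxb4, Hoxb5 and Hoxb6 rose in the knockout leukaemia. Hox proteins set the identity of cells along the body axis, and the anterior Hoxb genes are expressed in haematopoietic stem cells. These were 4 of 9 measured Hoxb genes and none fell, against 2.1% and 1.16% of all genes, with a median log2 change of 0.58 against 0 over all genes. The other 5 did not pass, Hoxb1 at -0.09 and Hoxb13 at -0.33 among them. Hoxb2 was at 5.56, 6.17 and 6.04 in knockout L-GMPs, against 4.37, 4.16, 3.99 and 4.38 in control L-GMPs, a change of 1.61 ± 0.14 (limma, BH-adjusted p = 1.22e-05). Hoxb5 was at 6.11, 5.95 and 6.56, against 3.34, 4.39, 3.81 and 4.00, with an adjusted p of 0.000202 (limma) for knockout against control L-GMPs. Hoxb4, known for expanding stem cells in culture, was at 6.5, 6.65 and 7.02 in knockout L-GMPs, against 5.45, 5.46, 5.16 and 5.00 in control L-GMPs, a change of 1.40 ± 0.23 (adjusted p = 0.00347, limma). None of these 3 overlapped between the groups. Hoxb6 rose by 0.89 ± 0.15 (adjusted p = 0.00365, limma), with 1 knockout array, at 4.61, just below the highest control array, at 4.64. With the leukaemia as 1 sample, Hoxb2 (0.00164) and Hoxb5 (0.0129) passed by limma's adjusted p, and Hoxb4 (0.123) and Hoxb6 (0.136) did not. Each of the 4 differences in L-GMPs exceeded the one in CMPs, by 1.73, 2.56, 1.70 and 0.95 for Hoxb2, Hoxb5, Hoxb4 and Hoxb6. With a term for high Xist this held for Hoxb2 (0.00229) and Hoxb5 (0.0337) and not for Hoxb4 (0.083) and Hoxb6 (0.211), as adjusted p by limma.

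The Hoxa cluster holds the best known targets of MLL fusions. None of 14 measured Hoxa genes and cofactors passed, against 3.27% of all genes, and their median change was 0.21. With so few genes that count is near the share over all genes, and the clusters were not tested against each other. Meis1, the cofactor of Hoxa9, was at 9.33, 9.83 and 9.56 in knockout L-GMPs, against 8.69, 8.30, 8.09 and 7.80 in control L-GMPs. The groups did not overlap, yet the change of 1.29 ± 0.86 had an adjusted p of 0.441 (limma), and 13.9% of all genes did not overlap between these groups. The error is shared by all 9 groups. The SD of Meis1 was 0.25 in knockout and 0.37 in control L-GMPs. It was 2.08 in KSLs and 2.61 in CMPs of MLL-AF9 knockout recipients without leukaemia, so this p-value does not show Meis1 unchanged between the L-GMPs. Hoxa9 changed by -0.21 and lay within 7.40 and 7.91 in knockout and within 7.66 and 8.0 in control L-GMPs. Among 13 measured targets of the fusion 2 rose, Mecom and the histone demethylase family gene Jmjd1c, against 2.1% of all genes. With the leukaemia as 1 sample Jmjd1c passed (adjusted p = 0.024, limma) and Mecom did not (0.403). Jmjd1c was at 10.51, 10.62 and 10.78 in knockout L-GMPs, against 9.30, 9.06, 9.43 and 9.57 in control L-GMPs, a change of 1.27 ± 0.16 (adjusted p = 0.000272, limma), and it rose in knockout CMPs as well, by 0.84 ± 0.14. None of 10 measured genes of the MLL fusion complex passed, with Mllt3 at -0.80 and Aff4 at 0.56 the farthest from 0. Mllt3 is the gene that contributes the AF9 part of the fusion.

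C/EBPα is known for the granulocyte and monocyte programme. None of 14 measured receptors and regulators of that lineage passed (median -0.09), and none of 13 monocyte and macrophage genes did (median 0.02), counts near the 3.27% of all genes that passed. Csf1r, the M-CSF receptor, was at 6.94, 7.49 and 7.86 in knockout L-GMPs, against 6.87, 7.80, 7.11 and 6.96 in control L-GMPs, a change of 0.12 ± 0.24 (limma, BH-adjusted p = 0.849). The groups overlapped. In CMPs without MLL-AF9 the same gene averaged 5.10 in the knockout and 8.27 in the control, and the L-GMP difference minus the CMP difference was 3.29 ± 0.33 (adjusted p = 5.18e-05, limma). Elane, neutrophil elastase, was at 11.63, 10.97 and 11.57 in knockout L-GMPs, against 12.32, 10.87, 11.47 and 11.10 in control L-GMPs, and averaged 5.58 in knockout and 10.4 in control CMPs. The difference of its changes was 4.86 ± 0.69 (adjusted p = 0.00109, limma), and for the granule proteases Prtn3 and Ctsg it was 3.62 ± 0.58 and 4.13 ± 0.57 (adjusted p = 0.00238 and 0.000944). These 4 genes were picked after their values were seen. The regulator Irf8 changed by -0.66 ± 0.30 (adjusted p = 0.249, limma) in L-GMPs and Egr2 by -0.70, and among monocyte genes the chemokine receptor genes Ccr2 and Cx3cr1 changed by 1.09 and -0.54, none of them past the test.

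Of 9 measured primary granule genes 1 passed, Prss57, a serine protease of neutrophil granules. It was at 9.32, 9.41 and 9.40 in knockout L-GMPs, against 8.46, 6.56, 7.79 and 6.72 in control L-GMPs, without overlap. The change was 1.98 ± 0.44 (limma, BH-adjusted p = 0.0221, and 0.383 with the leukaemia as 1 sample). The Prss57 call ended without primary control array 2 (0.063), secondary control array 2 (0.0816) or either secondary knockout array (0.0584 and 0.0574), as adjusted p by limma. Of 15 secondary granule and mature neutrophil genes 2 rose, against 2.1% of all genes, and none fell. Padi4, the enzyme that citrullinates histones in neutrophils, was at 6.94, 7.38 and 7.63 in knockout L-GMPs, against 5.38, 4.93, 5.25 and 5.43 in control L-GMPs, a change of 1.98 ± 0.21 (adjusted p = 7.73e-05, limma). Itgam, which encodes CD11b, rose by 1.42 ± 0.26 (adjusted p = 0.00587, and 0.18 with the leukaemia as 1 sample, limma), with its primary knockout array at 8.47 just above the first primary control array at 8.40. Camp, the gene of the granule peptide cathelicidin, had a change of -1.41 and did not pass (adjusted p = 0.0731, limma). Its values of 5.50, 5.71 and 7.96 in knockout and 7.53, 6.61, 8.08 and 8.08 in control L-GMPs overlapped. Of the 15 members 8 lay on the positive and 7 on the negative side, with a median of 0.14. Those on the negative side, none of which passed, included Chil3 at -2.05, the calprotectin genes S100a8 and S100a9 at -1.85 and -1.52, Ngp at -1.07 and Mmp8 at -1.06. On the positive side, Lcn2 at 0.46, Anxa1 at 0.25 and Ly6g at 0.24 did not pass. Chil3 was at 7.94, 5.37 and 9.26 in knockout L-GMPs, against 11.53, 4.61, 11.09 and 11.48 in control L-GMPs. Without primary control array 2, which held the 4.61, Chil3 fell by 3.78 (adjusted p = 0.0089) and Cd177 by 0.55 (adjusted p = 0.0212, limma), and the list had 4 calls. These genes were named after their values were seen.

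Within the C/EBP and Tribbles list, 1 of 9 measured genes rose and 1, Cebpa itself, fell. Cebpg, which dimerises with other C/EBP proteins, rose by 0.69 ± 0.17 (limma, BH-adjusted p = 0.0387, 0.359 with the leukaemia as 1 sample and 0.0506 with a term for high Xist). The Cebpg call ended without primary control array 2 (0.105), secondary control array 1 (0.104), the primary knockout array (0.284) or secondary knockout array 1 (0.124). Cebpb and Cebpe, which act later in myeloid maturation, changed by -0.60 and 0.45 and did not pass. Genes of the stem cell list rose in 3 of 15 cases, Mecom, Hoxb5 and Hoxb4, against 2.1% of all genes, and the median of that list was -0.10. With the leukaemia as 1 sample Hoxb5 alone passed. Of its 15 measured genes 6 lay below 5 on all 7 arrays.

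Genes of growth and signalling were taken list by list. Pde3b, a phosphodiesterase that breaks down cyclic AMP, was at 10.40, 10.97 and 10.83 in knockout L-GMPs, against 8.33, 4.97, 5.98 and 5.98 in control L-GMPs. Its change of 4.34 ± 0.72 was a 20.2-fold difference (limma, BH-adjusted p = 0.00322, and 0.126 with the leukaemia as 1 sample), and the first primary control array lay well above the other control arrays. Of 12 measured phosphodiesterases 1 other passed, Pde1b at -0.60 ± 0.12 (adjusted p = 0.0137, 0.293 with the leukaemia as 1 sample and 0.0962 with a term for high Xist), whose groups overlapped and whose sign turned, to 0.04, without the primary knockout array. Among 18 cytokine response genes 2 rose and 1 fell, against 2.1% and 1.16% of all genes. The kinase gene Pim1, a target of STAT5, rose by 1.63 ± 0.30 (adjusted p = 0.00649) and the cyclin gene Ccnd2 by 1.07 ± 0.16 (adjusted p = 0.00142, limma). With the leukaemia as 1 sample neither passed (0.19 for Pim1 and 0.0652 for Ccnd2). Pim1 was at 8.17, 8.59 and 8.87 in knockout and at 6.72, 7.06, 6.88 and 6.63 in control L-GMPs. Id1, an inhibitor of helix-loop-helix factors, fell by 0.99 ± 0.21 (adjusted p = 0.017, 0.309 with the leukaemia as 1 sample and 0.103 with a term for high Xist), a call that ended without secondary control array 1 (0.0517) or secondary knockout array 1 (0.0623).

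Bid, a pro-apoptotic member of the BCL2 family, rose by 0.84 ± 0.14 (adjusted p = 0.00285, and 0.121 with the leukaemia as 1 sample, limma), 1 of 11 measured apoptosis regulators. None of 21 cell cycle genes passed, with Cdkn2c, an inhibitor of cyclin-dependent kinases, at 1.82 ± 0.58 (adjusted p = 0.101) and the mitotic kinase gene Bub1 at 0.42. Cdkn2c passed when the arrays were weighted by their noise (adjusted p = 0.0284) and without primary control array 1 (0.01). None of 16 ribosome biogenesis genes passed, where Bop1 and Nop56 had the largest differences, -0.34 and -0.33, and the median was -0.18. Of 14 immediate early genes 1 rose, the AP-1 member Fosl2, by 0.69 ± 0.18 (adjusted p = 0.0491, 0.546 with the leukaemia as 1 sample and 0.119 with a term for high Xist, limma). The Fosl2 call ended in 5 of the 7 fits that left out an array, at adjusted p of 0.0841 to 0.118 without primary control array 2 or either secondary array of either genotype. Of 14 interferon genes 1 fell, Ifit3, by 0.66 ± 0.16 (adjusted p = 0.0384, 0.49 with the leukaemia as 1 sample and 0.0568 with a term for high Xist, limma). The Ifit3 call also ended in 5 of those fits, at 0.0558 to 0.12 without any knockout array, primary control array 2 or secondary control array 2. Poly I:C had been given to donors of both genotypes before transplantation.

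Most markers of other cells that the sort could hold did not pass, but only 3.27% of all genes passed. Few calls in such short lists therefore do not show that these cells were absent. For some mast cell and basophil genes the pooled error was wide, with an SE of 1.2 for Ms4a2, 1.04 for Hdc and 1.23 for Mcpt8. Of 14 mast cell and basophil genes 1 fell, Cpa3. Across that list the array means were 4.75 to 4.86 in knockout and 4.98 to 5.37 in control L-GMPs. Of the 14 genes 9 lay below 5 on all 7 arrays, and Ms4a2 and Fcer1a were at most 3.97 in knockout and 4.51 in control L-GMPs. Mcpt8 of the same list was high, at 9.47, 8.68 and 8.53 in knockout and 7.97, 7.30, 8.34 and 9.21 in control L-GMPs. It did not pass (adjusted p = 0.777, limma), and its mean in control GMPs was 9.41. Hdc, which makes histamine, was at 6.26, 5.73 and 6.02 in knockout L-GMPs, against 8.07, 8.02, 5.89 and 5.53 in control L-GMPs, and did not pass. Of 13 erythroid genes 1 rose, Car2, while Gata1, at 4.97 to 5.30 in knockout and 4.92 to 6.21 in control L-GMPs, and Klf1, at 5.06 to 5.30 and 4.86 to 5.30, did not pass. The array means of the erythroid list were 5.81 to 5.84 in knockout and 5.56 to 5.88 in control L-GMPs. Of 9 megakaryocyte genes 1 fell, Gng11, a G protein subunit of platelets and other cells, at 4.68, 4.83 and 4.90 in knockout L-GMPs against 7.99, 6.11, 8.20 and 7.94 in control L-GMPs, by 2.79 ± 0.58 (limma, BH-adjusted p = 0.0134, 0.293 with the leukaemia as 1 sample and 0.0743 with the term for high Xist). The array means of that list were 5.74 to 5.90 in knockout and 6.04 to 6.26 in control L-GMPs.

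Nkg7, a granule membrane protein of killer lymphocytes, was at 10.97, 10.31 and 10.41 in knockout L-GMPs, against 10.07, 8.45, 7.22 and 6.57 in control L-GMPs. Its mean was 10.98 in control GMPs, 10.37 in knockout CMPs and 10.11 in control CMPs. The knockout L-GMPs were thus near progenitors without MLL-AF9, and the control L-GMPs, at a mean of 8.08, were below them. Nkg7 is therefore not a marker of lymphocytes alone in these cells. It rose by 2.59 ± 0.47 (limma, BH-adjusted p = 0.0054, and 0.18 with the leukaemia as 1 sample) and was the 1 of 11 mature lymphocyte genes that passed. That list's array means were 5.25 to 5.43 in knockout and 4.94 to 5.20 in control L-GMPs, and 6 of its genes, Cd3g, Cd3d and Cd4 among them, lay below 5 on all 7 arrays. None of 11 lymphoid progenitor, 12 dendritic cell, 6 eosinophil or 15 GATA, RUNX and ETS genes passed, with medians of 0.03, 0, -0.10 and 0.01. These counts are near the 3.27% of all genes that passed. The 2 values farthest from 0 in each list were, in lymphoid progenitor genes, Il7r at -1.53, where 1 control array at 9.34 stood apart, and Flt3 at 1.21; in dendritic cell genes Flt3 and H2-Aa (0.49), in eosinophil genes Prg2 (-0.35) and Ear6 (-0.23), and in the GATA, RUNX and ETS genes Ets2 (0.92) and Ikzf2 (0.52). Primary control array 1, which held the Il7r value of 9.34, was also highest for the lymphoid progenitor genes Ebf1 (5.46) and Rag2 (5.42). The other L-GMP arrays were at 3.13 to 3.39 for Ebf1 and 3.10 to 3.75 for Rag2. Dntt, Rag1 and Pax5, at 4.48, 3.92 and 5.00, were not highest on that array. Of 12 stromal genes Pecam1 rose by 0.90 ± 0.22 and Vcam1 fell by 1.44 ± 0.34 (adjusted p = 0.0344 and 0.0289, limma), with array means of 5.07 to 5.15 in knockout and 5.19 to 5.46 in control L-GMPs. With the leukaemia as 1 sample these were 0.433 and 0.441, and with a term for high Xist 0.0786 and 0.12. The Pecam1 call ended without either secondary control array (0.0694 and 0.0795) or secondary knockout array 1 (0.111), and the Vcam1 call without secondary control array 2 (0.0995) or either secondary knockout array (0.0719 and 0.0693). The part of other cell types in these results was not tested. Of 8 housekeeping genes none passed, with Tbp and B2m both at 0.15, and of 11 genes of the surface sort 1 did, Itgam.

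**Figure D4:**
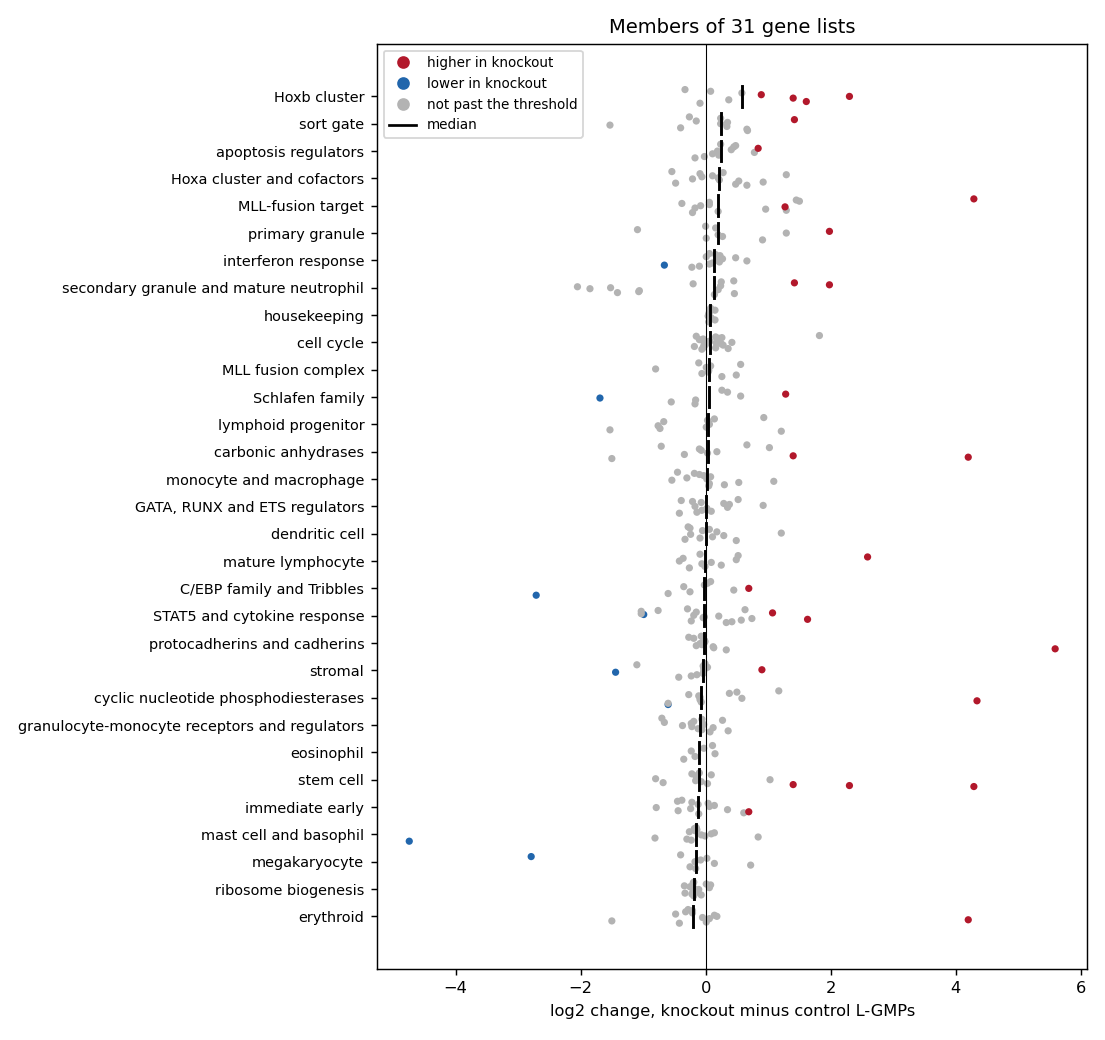
Log2 change, knockout minus control L-GMPs (horizontal axis), of the measured members of 31 gene lists, 1 list per row, red where higher in knockout, blue where lower and grey where not past the threshold; black bars are medians. Medians run between -0.21 (erythroid) and 0.58 (Hoxb cluster), and most lists hold no more than 2 genes past the threshold.

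Both rounds of transplantation were compared on their own. In secondary recipients 622 genes passed (3.12%), and in primary recipients, with 1 knockout array whose spread was taken from the other groups, 132 did (0.662%). Of these 45 passed in both, 44 in the same direction, which is 34.1% of the primary and 7.2% of the secondary calls. The knockout arrays of both rounds come from 1 leukaemia and the error is shared, so the rounds are not independent repeats. Pcdh7 rose by 5.41 in primary and 5.77 in secondary recipients, and Klhl4 by 4.51 and 3.81. The changes of Cebpa were -2.67 and -2.75, and those of Cpa3 -5.71 and -3.77 (limma, BH-adjusted p for Cpa3 0.0387 and 0.0476). Mecom, at 3.33 in primary recipients (adjusted p = 0.327) and 5.25 in secondary ones (adjusted p = 0.0308, limma), passed in the secondary round, and the difference between its rounds, 1.91, did not pass (adjusted p = 0.794). The secondary effect minus the primary effect passed for 77 genes (0.386%), and none of the named genes was among them.

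The knockout effect in L-GMPs was set against that in CMPs without MLL-AF9, where 979 genes passed (4.91%). The difference of the effects passed for 558 genes (2.8%), 402 higher (2.02%) and 156 lower (0.782%) in L-GMPs than in CMPs. Cebpa was not among them, at -0.49 ± 0.26 (limma, BH-adjusted p = 0.366), and Mecom missed at 4.90 ± 1.32 (adjusted p = 0.0598). Ak4 changed by -1.55 ± 0.45 in CMPs (adjusted p = 0.061) and rose in L-GMPs, a difference of 5.35 (adjusted p = 0.000413, limma). Prss57 fell in knockout CMPs by 2.12 ± 0.40 and rose in knockout L-GMPs, a difference of 4.10 ± 0.59 (adjusted p = 0.00125, limma). The L-GMP arrays come from transplanted mice, and the CMP arrays from untransplanted mice 5 days after poly I:C. The presence of MLL-AF9, the transplantation, the time after poly I:C, the cytokine vectors and the stage of the cells therefore cannot be told apart here. Sex ran opposite ways in the comparisons: among L-GMPs, Xist was high on 3 of 3 knockout and 1 of 4 control arrays, while among CMPs it was high on 1 of 4 knockout and 3 of 4 control arrays. With a term for high Xist, added after seeing the data, 245 genes passed the test of the difference, 211 of them among the 558. Of 43 genes named in the text that passed it, 23 still did, Pcdh7, Klhl4, Ak4, Prss57, Elane and Csf1r among them, and 20 did not, Cpa3, Car2, Gng11 and Iftap among them, with no sign turned.

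**Figure D5:**
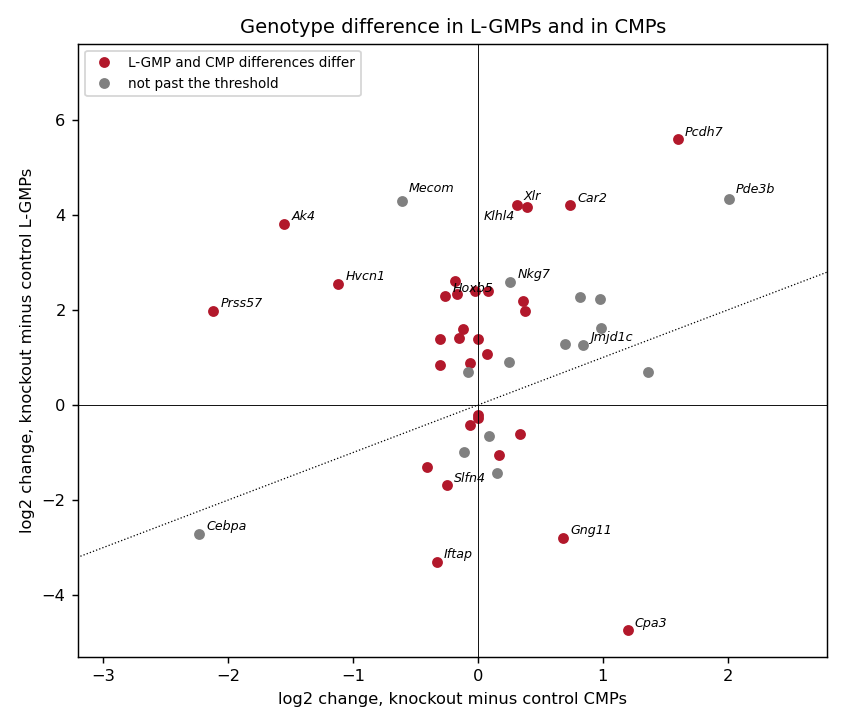
Log2 change, knockout minus control, in L-GMPs (vertical axis) and in CMPs without MLL-AF9 (horizontal axis) for the named genes that passed in L-GMPs, red where the changes differed by the test of the difference and grey where they did not; the dotted line marks equal changes. Cebpa lies near the line, Pcdh7 was higher in the knockout of both populations, and Prss57, Ak4 and Cpa3 were among the genes with opposite signs.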

How the data were processed

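RNA of sorted mouse bone marrow cells was amplified from small amounts and hybridised to Affymetrix arrays, per the labels' protocols. The values deposited by the authors are log2 expression of 34760 probe sets. RMA produced them, per the submitters' processing notes. The RMA version is not stated there, and values stop at a floor of 3. RMA equalises the arrays' distributions and compresses changes of dim genes, and levels are not comparable between probe sets. The number of arrays limits the precision.

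The platform annotation gave 1 symbol for 21640 probe sets, several for 1321 and none for 11799. Of the first, 21553 matched RefSeq by gene identifier. Of 954 genes with several probe sets the brightest was used, leaving 19937 genes. Means of 9 groups were fitted to all 23 arrays with limma 3.58.1 in R 4.3.3, with a trend in the prior variance, and p-values were BH-adjusted over all genes, with a threshold of 0.05. The knockout effect is the mean of the primary and secondary differences, each round weighted equally. In the alternative with the leukaemia as 1 sample, the 3 knockout L-GMP arrays were averaged. Scan dates were not used here. The code was tested on simulated data.

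Named genes are Cebpa, Pcdh7, Mecom and Cpa3, up to 14 rises and 14 falls without overlap that passed both ways (leaving out predicted, clone-named, small RNA, receptor and immunoglobulin segment, Xist, olfactory and Y-linked genes), and of each list at most 4 members that passed, or at most 2 where none did. The comparison, the members and the lists were chosen with earlier results of these data known. Alternatives changed the normalization, the filter on dim genes, probe set choice, array weights, variance trend, blocks for the shared leukaemia or replicate number, a term for high Xist, and each array in turn. Promoters are RefSeq windows on GRCm38.p6.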

Additional observations from a re-analysis of the deposited data

Results flagged for a closer look

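Of the 4 control L-GMP arrays, 1 lay far from the other 3 for 5 named genes: Pcdh7 at 4.95 and Gng11 at 6.11 on primary control array 2, Il7r at 9.34 on primary control array 1, and P2ry13 at 5.59 and Pcdhb17 at 3.71 on secondary control array 2. Chance alone marks about 1 in 20 groups of 4.

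The knockout difference in L-GMPs was larger than that in CMPs by limma's test of the difference (BH-adjusted over all genes) for Pcdh7 (3.99), Car2 (3.47), Xlr (3.89), Klhl4 (3.77), Ak4 (5.35), Lrg1 (2.79), Hvcn1 (3.67), Vcpkmt (2.42), Dennd5b (2.31), Lifr (2.5) and Crtc3 (1.84), all on the log2 scale. The same held for Hoxb5 (2.56), Hoxb4 (1.70), Hoxb2 (1.73) and Hoxb6 (0.95). Myeloid genes with a positive difference were Prss57 (4.10), Elane (4.86), Prtn3 (3.62), Ctsg (4.13), Csf1r (3.29), Padi4 (1.59), Itgam (1.57), Irf8 (2.32), Ccr2 (3.90) and Prg2 (2.40). Further positive differences were those of Ccnd2 (1.01), Bid (1.14), Car3 (1.40), P2ry13 (1.80), Pcdhb16 (1.66), Pcdhb17 (1.52), Cd24a (1.55) and Tet1 (1.53). The difference was negative for Cpa3 (-5.95), Gng11 (-3.46), Iftap (-2.97), Slfn4 (-1.43), Csta3 (-1.21), Pde1b (-0.94), Ldlrad3 (-0.90), Speer3 (-0.37), Prss58 (-0.27) and Pate13 (-0.21). With a term for high Xist, 20 of these 43 differences did not pass: those of Car2, Xlr, Iftap, Slfn4, Ldlrad3, Speer3, Prss58, Pate13, Cpa3, Irf8, Ccr2, Hoxb4, Hoxb6, Prg2, Gng11, Ccnd2, Car3, Pde1b, Pcdhb16 and Tet1.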

How the results depend on the processing

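The 651 genes of the L-GMP comparison became 83 with the knockout leukaemia as 1 sample, 382 with a random block for arrays of the same leukaemia or mouse, and 11 with the 7 L-GMP arrays alone (2688 at an unadjusted p below 0.05). Leaving out 1 array gave 409 (without secondary knockout array 2) to 2449 (without primary control array 1), with 427 without secondary knockout array 1 and 415 without secondary control array 2. With the replicate number as a block, also fitted on the 7 L-GMP arrays alone, 0 genes passed (limma, 2013 at an unadjusted p below 0.05). Same-numbered arrays did not deviate together (correlations of -0.128, -0.00893 and -0.0458), but so few arrays per group cannot decide whether the numbers pair the arrays. The crossed pairing, added after seeing the data and fitted on the same 7 arrays, gave 0 (2198 unadjusted). Array weights moved the primary count to 72, the secondary count to 1324, the round difference to 41 and the L-GMP against CMP difference to 1280. With 7 arrays alone the primary, secondary and round counts were 0, 3 and 0 (1908, 2456 and 1619 unadjusted). Leaving out 1 array gave 136 to 1918 for the primary round, 229 to 910 for the secondary round, 28 to 896 for their difference and 383 to 1603 for L-GMPs against CMPs. The lows left out primary control array 2, secondary control array 2, secondary knockout array 1 and a knockout CMP array, in that order, and all 4 highs left out primary control array 1. Renewed quantile normalization gave 58.0% higher calls, the filter on dim genes 73.2%, the 7 arrays alone 81.8% and the fit without primary control array 1 49.2%, against 64.4%. Without the primary knockout array Bub1 turned to -0.08 and Pde1b to 0.04, the ends of ranges of -0.08 to 0.58 and -0.62 to 0.04 over the arrays left out. The term for high Xist moved the L-GMP against CMP difference to 245. Of 54 called genes named in the text, 29 stayed past the threshold in every fit that held them, except those of 7 arrays alone and the replicate blocks. With the 7 L-GMP arrays alone 6 of the 54 passed and 48 did not, and with either replicate block 0 passed. The pooled spread mixes unlike groups. The median deviation from the group mean, scaled for group size, was 0.11 to 0.212 in L-GMP groups with 2 arrays. It was 0.086 to 0.0926 in CMPs and GMPs without MLL-AF9, and 0.197 and 0.219 in MLL-AF9 progenitors without leukaemia. The filter on dim genes kept 48 of the 54. Among the 29 it dropped Speer3, Prss58, Csta3 and Pcdhb17, which were therefore not tested in that fit. The cause of these changes was not tested.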

Other observations

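The genes of this section were chosen after their values were seen. Med12l, among the largest rises, contains in its RefSeq span a group of purinergic and orphan receptor genes. Of the 7 measured genes that overlap that span, 5 rose in knockout L-GMPs, against 2.1% of all genes. Both counts include Med12l itself, which was chosen for its rise. P2ry13, a receptor for ADP, was at 7.39, 6.99 and 7.5 in knockout L-GMPs, against 5.28, 5.25, 5.25 and 5.59 in control L-GMPs, a log2 change of 1.97 ± 0.16 (limma, BH-adjusted p = 4.56e-06, and 0.000316 with the leukaemia as 1 sample). P2ry14, a receptor for UDP-glucose, was at 7.47, 7.69 and 7.5, against 6.33, 6.93, 5.54 and 5.53, a change of 1.45 ± 0.25 (adjusted p = 0.00456, and 0.159 with the leukaemia as 1 sample). Gpr171 rose by 1.75 ± 0.32 (adjusted p = 0.00568, and 0.126 with the leukaemia as 1 sample), and its groups overlapped. F630111L10Rik also rose (adjusted p = 0.0124, 0.276 with the leukaemia as 1 sample and 0.0648 with a term for high Xist), and P2ry12 (0.34) and Igsf10 (-0.67) did not pass. Transcripts of a host gene may reach probes of genes within it, so these rises may not be independent measurements.

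Pcdh7 was not the only protocadherin gene that differed. Of 34 measured protocadherin symbols 9 rose and 1 fell in knockout L-GMPs, against 2.1% and 1.16% of all genes, with a median of 0.01, and 7 of the rises were among the 22 clustered Pcdhb genes, whose sequences are alike and may share probes. The calls of Pcdhb8, Pcdhb18, Pcdhb19, Pcdhb20 and Pcdhb22 each ended in 1 to 5 of the 7 fits that left out an array, and the rises of Pcdhb19 (0.39) and Pcdhb20 (0.30) were over control arrays all at the floor. With a term for high Xist Pcdhb8 (0.122), Pcdhb18 (0.0871), Pcdhb19 (0.119) and Pcdhb20 (0.0824) did not pass. Pcdhb16 was at 5.92, 6.92 and 6.26 in knockout L-GMPs, against 4.42, 3.88, 4.78 and 4.73 in control L-GMPs (1.80 ± 0.27, limma, BH-adjusted p = 0.00128). Pcdhb17 was at 4.70, 5.47 and 4.58, against 3.30, 3.29, 3.31 and 3.71 (1.46 ± 0.17, adjusted p = 0.000194). The X-linked Pcdh11x rose by 2.25 ± 0.46 (adjusted p = 0.0127, 0.282 with the leukaemia as 1 sample and 0.0606 with a term for high Xist). The surface protein gene Cd24a was at 10.65, 10.85 and 10.90 in knockout L-GMPs, against 9.70, 9.27, 8.83 and 8.99 in control L-GMPs, a change of 1.56 ± 0.18 (adjusted p = 0.000115). Tet1, which oxidises methylcytosine, was at 8.25, 8.46 and 8.72, against 7.0, 6.64, 6.07 and 6.01, a change of 1.99 ± 0.28 (adjusted p = 0.000854, and 0.0522 with the leukaemia as 1 sample).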
